A study of Homo sapiens with 6 samples.

Results

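The genes described here encode the proteins of the mitochondrial ribosome, with symbols that start with MRPL for the large subunit and MRPS for the small one, and the TOMM and TIMM genes of the mitochondrial protein import machinery. They were picked by a rule on symbols, and the set was chosen with earlier results of these data known. The rule matched 102 rows of the table, which came to 95 genes once the row of highest mean was kept for each repeated symbol: 75 ribosome genes and 20 import genes among 54607 rows in all. RNA was sequenced from H358, an established human lung cancer cell line of epithelial kind. In 3 libraries, the ESRP KD group, lentiviral hairpins (shRNAs) had been used to knock down both ESRP1 and ESRP2, RNA-binding proteins that steer splicing in epithelial cells. In the other 3 libraries, the CTRL group, the cells had a control knockdown, whose hairpin is not described in the labels. The libraries are described as biological triplicates, so n = 3 in every mean ± SD below, and nothing further says what separates them. All come from 1 cell line, and each group has its own constructs, so effects of a construct and of lower ESRP cannot be told apart.

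Mitochondria keep their own ribosomes, which translate the few proteins that mitochondrial DNA encodes, all of them membrane subunits of the respiratory chain and the ATP synthase. The ribosome's RNA is made inside the organelle, but every one of its proteins is encoded in the nucleus, made in the cytosol and imported. Import begins at the TOM complex of the outer membrane, where receptors (TOMM20, TOMM22, TOMM70) hand precursor proteins to the TOMM40 channel, which the small subunits TOMM5, TOMM6 and TOMM7 surround. Behind it, the TIM23 complex takes proteins with a cleavable presequence across the inner membrane, the TIM22 complex inserts carrier proteins into that membrane, and the small TIM proteins escort hydrophobic precursors between the membranes.

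The values were FPKM (fragments per kilobase of gene model, scaled by library size), 1 value per gene and library. The total depth is unknown, since no read totals came with them. From the spacing of the lowest values, depth relative to control replicate 1 ranged from 0.993 to 1.66. It was 0.993, 1.42 and 1.24 in knockdown replicates 1, 2 and 3, and 1.66 and 1.65 in control replicates 2 and 3. Replicate 1 was thus lowest in both groups. ESRP1 stood at 12.1, 11.6 and 12.04 FPKM in the knockdown libraries and at 73.5, 72.6 and 72.5 FPKM in the control libraries, and ESRP2 at 8.76, 8.23 and 8.203 against 15.5, 15.9 and 15.2 FPKM. The epithelial markers EPCAM, CDH1, KRT7, KRT8, KRT18 and KRT19 summed to 3018 to 3113 FPKM in the knockdown and 3485 to 3593 FPKM in the control, and 5 of the 6, all but EPCAM, fell; in such bulk samples fewer cells of a type and less RNA per cell cannot be told apart. Their part in the results below was not tested. The 5 immune markers summed to at most 1.70 FPKM and the 3 endothelial markers measured to at most 1.69 FPKM, while the erythroid markers summed to at most 0.319 FPKM, with ALAS2 listed at 0 in every library.

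Of the 95 genes, 94 averaged 1 FPKM or more across the libraries and were tested. The gene left out was MRPS18B, a small subunit protein whose gene lies in the major histocompatibility complex. It occupied 7 rows, 6 of them listed at 0 in every library, and the row kept, on an alternate haplotype of chromosome 6, ranged from 0.0602 to 0.278 FPKM. An exact 0 in such a table can be a failed estimate, so these values do not show a low level. MRPL46 had 2 rows, of which the one kept stood between 23.3 and 25.3 FPKM.

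The levels covered a wide range within each family. Ribosome genes had a median of 38.9 FPKM over the 6 libraries and ran from MRPL30 at 8.84 to MRPL33 at 142 FPKM, both in the large subunit. Among small subunit genes MRPS17 was lowest at 12.6 and MRPS21 highest at 98.9 FPKM. Import genes had a median of 44.5 FPKM. They ran from TIMM23B, a near copy of TIMM23, at 4.74 to TOMM6 at 233 FPKM, which was also the highest level of all 95 genes. TOMM5 at 111 and TOMM7 at 90.7 FPKM followed among the outer membrane genes, so that the small TOM subunits had the 3 highest levels of their family. FPKM is a level per length, which lets genes be set side by side, but for the shortest transcripts it depends on the effective length assumed.

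**Figure D1:**
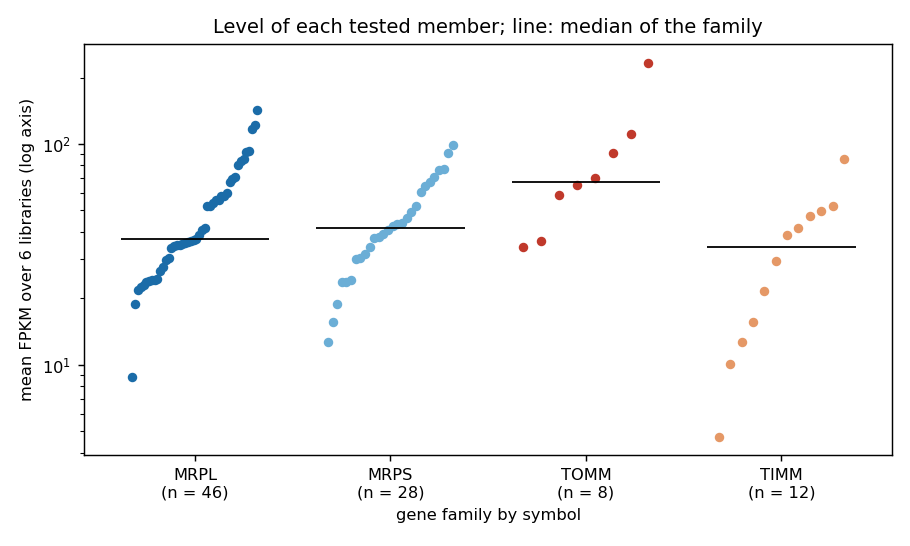
Mean FPKM over the 6 libraries (log axis) of each tested gene, 1 point per gene, by symbol family; the line is the family median. Medians lie between 34.03 FPKM (TIMM) and 67.6 FPKM (TOMM), and TOMM6 at 233 FPKM stands highest.

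The comparison asks whether RNA of these genes differed between ESRP knockdown and control cells. Changes were small in both families, and with all 6 libraries a larger share of the import genes passed the test. Of 74 ribosome genes tested with limma on log2(FPKM + 1), 2 rose and 2 fell at an adjusted p below 0.05, 5.41% in all. Of 20 import genes, 6 rose and 1 fell, 35.0% in all. Among all 13611 genes tested, 16.7% were called, 6.54% upward and 10.2% downward. With all 6 libraries the share called was below that background for ribosome genes and above it for import genes. The import share rested on the full set of libraries. When a library was left out, 1 to 3 of the 20 import genes were called. Without knockdown replicate 1 that was 2 genes, where 10.6% of all genes tested were called, and without knockdown replicate 2 it was 2 of 20 against 1362 of all 13611. Without knockdown replicate 3 it was 3 genes against 14.6%. Without control replicate 1 a single import gene was called against a background of 10.4%, with 4 of 74 ribosome genes (5.41%) in the same fit. Control replicates 2 and 3 left 3 and 2 import genes when removed, against 8.91% and 8.72%. The share of import genes was thus about level with the background without knockdown replicate 1, 2 or 3 or control replicate 3. It was below the background without control replicate 1 and above it without control replicate 2, with only 1 to 3 import genes called throughout. For ribosome genes it was below the background in each of these 6 fits. The difference between the families was not itself tested, because the genes were chosen with results of these data known.

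The median log2 fold change, knockdown minus control, was -0.011 over the ribosome genes (from -0.35 to 0.18) and 0.091 over the import genes (from -0.15 to 0.20), beside -0.0021 over all genes tested. Of the ribosome genes 36 had a fold change above 0 and 38 below, while of the import genes 13 lay above and 7 below. The 3 knockdown libraries did not overlap the 3 control libraries for 18 of 74 ribosome genes (7 higher, 11 lower) and 11 of 20 import genes (9 higher, 2 lower), against 38.1% of all genes tested, 17.3% higher and 20.9% lower. At an unadjusted p below 0.05 there were 23 ribosome genes, 10 higher and 13 lower, and 11 import genes, 9 higher and 2 lower, where the background was 32.9%.

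The median standard error of the ribosome genes was 0.042 on the log2 scale and that of the import genes 0.037, beside 0.053 over all genes tested and 0.046 over the 10047 genes at or above the level of the lowest import gene. The 95% interval of the fold change lay within 1.2-fold in either direction for 67 of 74 ribosome genes and 18 of 20 import genes, or 90.5% and 90.0%, beside 61.3% of all genes tested and 72.6% of those 10047 genes. These intervals are per gene, not adjusted for the number of genes, and are on the scale of log2(FPKM + 1).

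**Figure D2:**
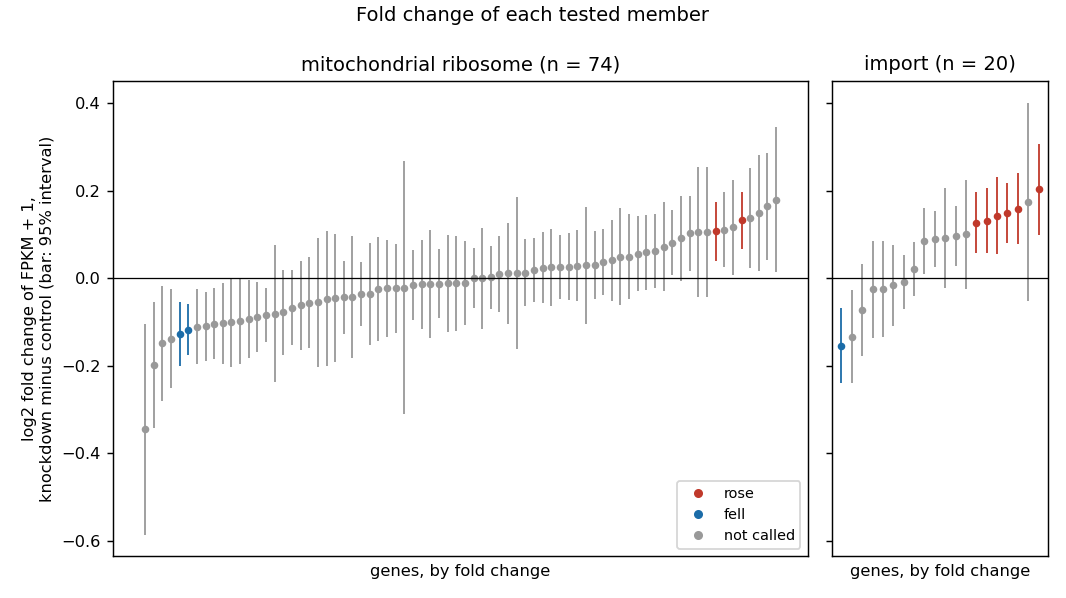
Log2 fold change of FPKM + 1, knockdown minus control, for 74 ribosome and 20 import genes in order of size; bars are 95% intervals and colours mark genes that rose, fell or were not called. The ribosome genes lie about evenly on both sides of 0 (36 above, 38 below), and 13 of 20 import genes lie above 0.

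In the sum over genes the same contrast appeared by library. The ribosome genes summed to 3558 ± 100 FPKM under knockdown and to 3561 ± 62.6 FPKM in control cells, and the groups overlapped. The import genes summed to 1143, 1157 and 1112 FPKM in knockdown replicates 1, 2 and 3 and to 1077, 1073 and 1092 FPKM in the control replicates. All 3 knockdown sums thus lay above all 3 control sums. TOMM6 alone made up 239 to 252 FPKM of each knockdown sum and was lower in every control library. The small TOM subunits, TOMM6 among them, summed to a mean of 451 FPKM under knockdown and 419 FPKM in control cells. The means of all import genes were 1137 and 1081 FPKM. The TIMM genes, which leave TOMM6 out, summed to 411 to 418 FPKM under knockdown and 400 to 408 FPKM in control cells.

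The knockdown libraries also differed among themselves. The median over ribosome genes of log2(FPKM + 1), each set against the gene's control mean, was 0.0032 in knockdown replicate 1, 0.036 in replicate 2 and -0.054 in replicate 3. The control libraries lay between -0.016 and 0.025, inside that range. For import genes the values were 0.079, 0.101 and 0.047 in the knockdown and -0.0066 to 0.0050 in the control. Knockdown replicate 3 was lowest in both families, and over all genes tested its median was -0.014. Without this library 3 ribosome genes rose and 1 fell, 3 import genes rose and none fell, and the median fold change was 0.014 for the ribosome and 0.098 for import.

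**Figure D3:**
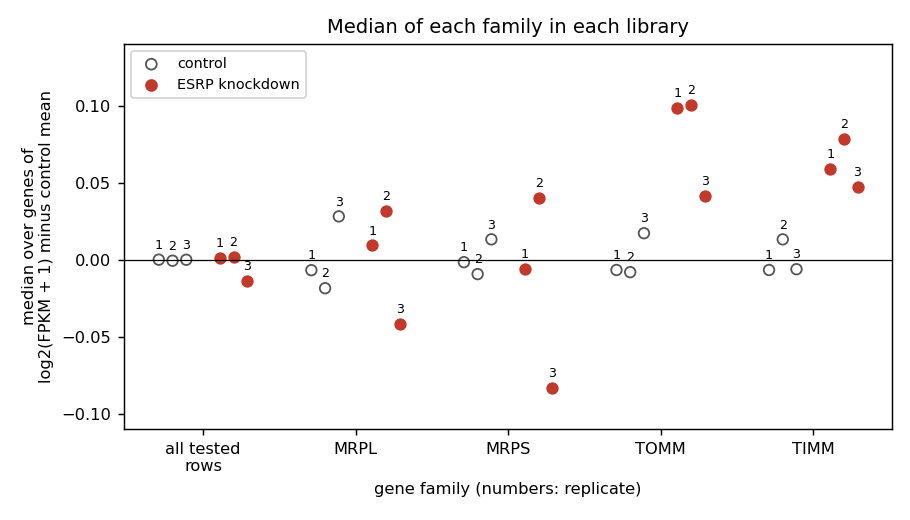
Median over the genes of a family of log2(FPKM + 1) minus the gene's control mean, 1 point per library, with replicate numbers; open points are control, filled points knockdown. Knockdown points of MRPL and MRPS lie on both sides of the control points, and those of TOMM and TIMM lie above them.

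The receptors of the outer membrane did not move as one. TOMM20, a receptor for presequences, stood at 74.3, 75.6 and 70.6 FPKM in the knockdown and 66.0, 64.5 and 68.9 FPKM in the control. It rose (log2 fold change 0.14, SE 0.037, limma adjusted p = 0.039), and its groups did not overlap. TOMM22, the receptor that also holds the complex together, went from 54.2, 57.6 and 55.9 FPKM to 62.2, 60.0 and 61.8 FPKM, again without overlap (0.13, SE 0.032, adjusted p = 0.030). TOMM70, listed as TOMM70A and the receptor for carrier precursors, stood at 33.6, 34.7 and 31.6 FPKM in the knockdown and 36.3, 35.2 and 33.5 FPKM in the control, where the groups overlapped (-0.072, adjusted p = 0.32). The TOMM20 call was lost when replicate 1 or 2 of either group was left out (adjusted p up to 0.12), and the TOMM22 call when replicate 1 or 3 of either group was (up to 0.089).

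TOMM40, the channel itself, was among the steadiest genes, with 65.1 ± 1.16 FPKM under knockdown and 65.5 ± 0.692 FPKM in control cells. Its log2 fold change of -0.0080 had a 95% interval from -0.070 to 0.054. Of the 3 small subunits around the channel, TOMM6 rose. Its values were 247, 252 and 239 FPKM in the knockdown and 224, 216 and 224 FPKM in the control, with no overlap (0.15, SE 0.029, limma adjusted p = 0.015). This was the smallest adjusted p of the 94 genes, but leaving out knockdown replicate 1 or control replicate 2 ended the call (up to 0.057). TOMM5 (112 ± 2.42 FPKM under knockdown, 110.1 ± 1.42 in control, adjusted p = 0.63) and TOMM7 (93.7 ± 6.47 and 87.7 ± 2.11 FPKM, adjusted p = 0.24) did not pass. TOMM34, a cytosolic protein that binds chaperones rather than a part of the membrane complex, stood at 37.4 ± 0.316 and 35.0 ± 0.812 FPKM, without overlap but with an adjusted p of 0.064.

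In the inner membrane, TIMM50, the receptor of the TIM23 complex that meets proteins as they leave the TOM complex, rose. It stood at 42.6, 40.3 and 39.5 FPKM in the knockdown and 36.5, 36.8 and 35.9 FPKM in the control, without overlap (0.16, SE 0.035, limma adjusted p = 0.021), though of the 6 fits with a library left out, the one without knockdown replicate 3 alone kept the call (up to 0.076 in the others). The other genes of that complex with TIMM symbols in the table were not called. Its subunit TIMM21, listed under another symbol and described further below, was called. TIMM17A and TIMM17B, paralogous subunits of its channel, lay on opposite sides: TIMM17A at 48.6 ± 1.66 FPKM in the knockdown and 45.8 ± 0.450 in the control (0.086, adjusted p = 0.11), TIMM17B at 47.5 ± 1.23 and 52.2 ± 3.10 FPKM (-0.13, adjusted p = 0.085). Neither passed, although the groups did not overlap for either, with 48.89 FPKM as the highest knockdown and 48.90 FPKM as the lowest control value of TIMM17B. TIMM44, which tethers the import motor, stood at 15.4 ± 0.740 and 15.7 ± 0.619 FPKM (adjusted p = 0.76).

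TIMM23, the core of the channel, was listed at 29.3 ± 1.48 FPKM under knockdown and 29.6 ± 0.184 FPKM in control cells (adjusted p = 0.81), and TIMM23B at 5.08 ± 0.526 and 4.39 ± 0.600 FPKM (adjusted p = 0.26). The rows of these near-identical copies overlap on chromosome 10, and how the counting split their reads is not given in the sources used here, so both values are uncertain. TIMM22, which forms the carrier translocase, had the largest fold change of the import genes. It stood at 10.3, 11.1 and 11.2 FPKM in the knockdown and 9.39, 9.25 and 9.26 FPKM in the control, where the lowest knockdown value was above the highest control value (0.20, SE 0.045, limma adjusted p = 0.021). The call was kept without knockdown replicate 1 and lost in the other fits that left out a library (up to 0.077).

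The small TIM chaperones, which work as hexamers of paired proteins, moved in both directions. TIMM8B rose from 81.2, 85.0 and 79.9 FPKM in the control to 90.7, 88.9 and 89.4 FPKM in the knockdown (0.13, SE 0.030, limma adjusted p = 0.028). TIMM13 fell from 22.7, 23.1 and 22.3 FPKM to 21.2, 19.9 and 19.9 FPKM (-0.15, SE 0.037, limma adjusted p = 0.028). Neither gene's groups overlapped. TIMM8A, the partner of TIMM13, stood at 13.1 ± 0.805 FPKM under knockdown and 12.2 ± 0.551 in control cells (adjusted p = 0.24), and the partners TIMM9 (43.2 ± 0.547 and 40.5 ± 0.595 FPKM, adjusted p = 0.062) and TIMM10 (52.0 ± 1.35 and 53.0 ± 3.43 FPKM, adjusted p = 0.75) were not called either. The TIMM8B call was kept without control replicate 2 and the TIMM13 call without knockdown replicate 1, and both were lost in the other such fits (up to 0.092 and 0.0999). TIMM13 was also not called in a fit corrected for GC content and transcript length (-0.086, adjusted p = 0.14).

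**Figure D4:**
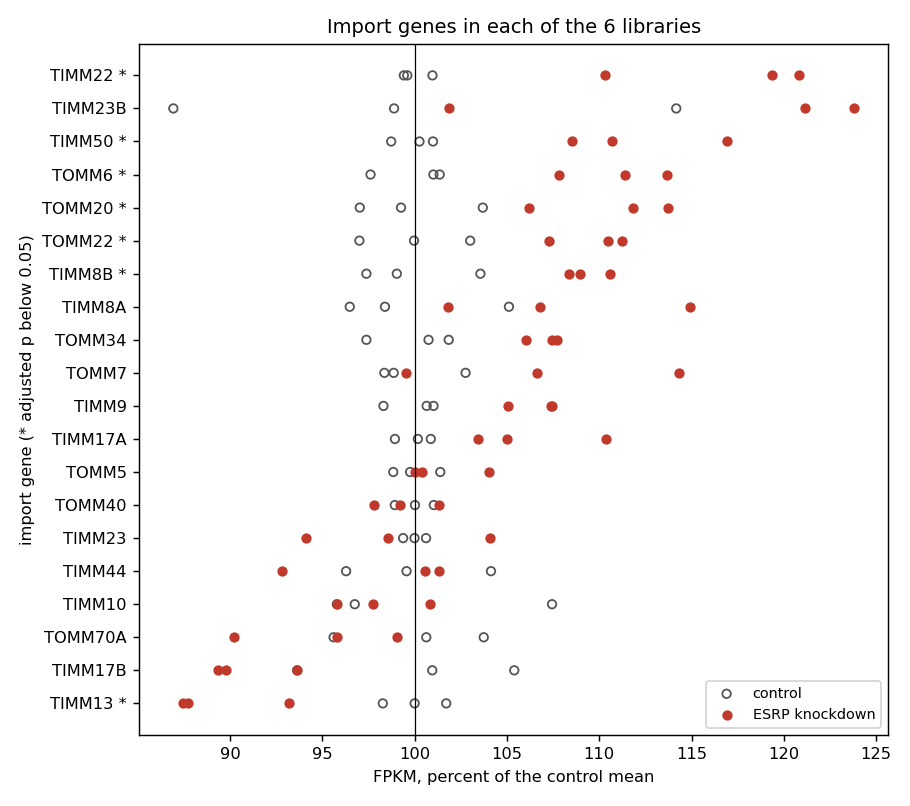
FPKM of the 20 import genes in each library as a percent of the gene's control mean; open points are the 3 control libraries, filled points the 3 knockdown libraries, and an asterisk marks an adjusted p below 0.05. The 6 genes that rose have all knockdown points right of all control points, and TIMM13 has them to the left.

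Among the ribosome genes the 4 calls came from 3 proteins of the large subunit and 1 of the small. MRPL1, a protein of the stalk where spent transfer RNA leaves, stood at 38.3, 39.5 and 39.0 FPKM in the knockdown and 35.6, 35.6 and 35.0 FPKM in the control (0.13, SE 0.028, limma adjusted p = 0.018). MRPL32, which in yeast must be cut by a membrane protease before it joins the ribosome, stood at 36.3, 37.4 and 37.3 FPKM against 33.8, 34.8 and 34.2 FPKM (0.11, SE 0.029, limma adjusted p = 0.042). Both rose without overlap of the groups. MRPL3, a relative of a protein near the catalytic centre of bacterial ribosomes, fell to 76.0, 77.9 and 76.3 FPKM from 84.4, 82.5 and 83.2 FPKM (-0.12, SE 0.025, limma adjusted p = 0.020). MRPS10, a protein of the small subunit head, fell to 35.2, 36.4 and 35.6 FPKM from 39.5, 37.98 and 39.9 FPKM (-0.13, SE 0.031, limma adjusted p = 0.031). For these as well, every knockdown library lay below every control library.

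None of these calls, and none of the 7 import calls, held in every fit that left out a library; import genes risen numbered 1 to 3 in those fits instead of 6, and no more than 3 ribosome genes rose and 2 fell. Leaving out knockdown replicate 2 or control replicate 2 or 3 ended the MRPL1 call (adjusted p up to 0.067). MRPL3 was lost without knockdown replicate 1 or any control replicate (up to 0.065), MRPS10 in all but the fit without control replicate 2 (up to 0.10), and MRPL32 in all 6 (up to 0.11). Of the 11 calls in both families, 5 were kept with no filter on low values and 5 with no intensity trend in the variance. TOMM20, TOMM22, TIMM8B and MRPS10 were lost under both of these settings, TIMM13 and TIMM22 with no filter alone, and MRPL3 and MRPL32 with no trend alone. TPM scaling also ended the calls of TOMM22 (adjusted p = 0.051) and MRPL32 (0.077), and the correction for GC content and length that of MRPL32 (0.065).

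The remaining 70 ribosome genes were not called, and 63 of them had intervals within 1.2-fold of no change. They include the gene farthest from no change. MRPL30, a large subunit gene of low level, stood at 8.13, 6.47 and 8.42 FPKM in the knockdown and 10.98, 8.85 and 10.2 FPKM in the control, without overlap but with a wide error (-0.35, SE 0.104, adjusted p = 0.059). Its row spans those of C2orf15, LIPT1 and MITD1. MRPL38 (51.6 ± 2.16 FPKM under knockdown, 59.5 ± 5.04 in control, adjusted p = 0.066) was also lower without overlap. MRPS25 had the largest difference upward (25.7 ± 1.09 and 22.7 ± 2.43 FPKM, 0.18, adjusted p = 0.12), with overlapping groups. MRPL38 and MRPS25 were singled out after their values were seen. MRPL33, the gene of highest level, stood at 154, 157 and 137 FPKM in the knockdown and 132, 129 and 142 FPKM in the control (0.15, adjusted p = 0.12), and MRPS21, the highest of the small subunit, at 102 ± 0.360 and 96.2 ± 3.63 FPKM (0.081, adjusted p = 0.12). MRPS17, the lowest tested of the small subunit, stood at 12.5 ± 0.735 and 12.7 ± 0.284 FPKM (adjusted p = 0.77).

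By subunit, 46 genes carried large subunit symbols, of which 2 rose and 1 fell with a median log2 fold change of 0.00095, a share below the 16.7% called among all genes tested. Of 28 genes with small subunit symbols none rose and 1 fell with a median of -0.018, and 7 of the 28 had an unadjusted p below 0.05, 4 of them higher and 3 lower in the knockdown, beside 32.9% of all genes tested. MRPS30 and MRPS18A were later placed in the large subunit, and MRPS36 in the oxoglutarate dehydrogenase complex; none of these 3 was called. The 7 ribosome proteins with other symbols (DAP3, ICT1, MRP63, GADD45GIP1, AURKAIP1, CHCHD1 and PTCD3) were not called either, with a median of -0.0020.

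The genes lie scattered through the genome, with ribosome genes on 21 chromosomes and import genes on 13. An opposite-strand gene among those tested started within 1000 bases of the start of 24 ribosome genes (32.4%) and 7 import genes (35.0%), beside 17.8% of all genes tested, in the deposited hg19 coordinates. One pair lies within the ribosome. MRPL46 (ENSG00000259494, chromosome 15, 89002707 to 89010650, minus strand) and MRPS11 (ENSG00000181991, chromosome 15, 89010684 to 89022222, plus strand) start 33 bases apart and are read in opposite directions. Neither was called. MRPL46 stood at 24.6 ± 0.843 FPKM under knockdown and 23.6 ± 0.557 in control cells, and MRPS11 at 39.1 ± 0.731 and 39.1 ± 0.667 FPKM, so the levels of the pair differed while neither fold change (0.057 and 0.000091) was set apart from 0.

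Of the 31 members with such a neighbour 3 were called, and of the 31 neighbours 1 was, beside 16.7% of all genes tested. The neighbours of TOMM22 and MRPL32 were not called. The pair with both genes called was TIMM8B (ENSG00000150779, chromosome 11, 111955524 to 111957522, minus strand) and SDHD, which encodes a membrane anchor of respiratory complex II. Their annotated starts overlap by 26 bases. SDHD rose with a log2 fold change of 0.13 (limma adjusted p = 0.036), close to the 0.13 of TIMM8B. The rows of 6 called members overlap another tested row in these coordinates: TIMM8B (SDHD and C11orf57), TIMM13 (LMNB2), TOMM6 (PRICKLE4), TOMM20 (SNORA14B), MRPL3 (SNORA58) and MRPL32 (PSMA2). Such an overlap was found for 40.5% of ribosome genes and 60.0% of import genes, called or not, and for 31.2% of all genes tested. The library kit kept strand, but the strand setting of the counting is not given in the sources used here, so reads of such neighbours cannot be told apart with certainty. Of the 95 genes, 39 also have a pseudogene named after them in the GENCODE v29 annotation, TOMM20, TOMM22, TIMM8B, MRPL3, MRPL32 and MRPS10 among them, and reads could be split with these copies.

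The promoters were read for letters bound by factors known to serve nuclear genes of mitochondrial proteins. RefSeq promoter windows (GRCh38.p14, 250 bases before to 50 after the start) matched 84 of the 95 genes. The ETS core CCGGAAG, bound by the GA-binding protein among others, was found on either strand in 28 of 66 ribosome windows (42.4%) and 9 of 18 import windows, beside 20.2% of 10068 windows of tested genes and 10.7% of all 27305 windows. The YY1 letters AAGATGGCG occurred in 13 ribosome windows (19.7%) and 1 import window (5.56%), beside 4.12% of windows of tested genes and 1.85% of all. The NRF1 letters, GCGC and TGCGC with any base between them, occurred in 7 ribosome windows (10.6%) and 4 import windows (22.2%), beside 12.2% and 6.28%. No match of a motif overlapped one of another in the windows of these genes. Of the 5 import genes that rose and had a window, 3 held the ETS core, and of the other 13 import genes 6 did.

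Windows of 3 import genes that rose, of the 2 ribosome genes that fell and of MRPL46, whose window shares 181 bases with that of MRPS11, are shown because the ETS core stands in windows of genes that rose and of genes that fell, and the YY1 letters in those of MRPS10, which fell, and MRPL46, which was not called. Letters in capitals are matches to the 3 motifs, each line runs 5′ to 3′ along the gene's own strand, and the first 250 bases lie before the start of the gene.
TOMM20 (chr1:235128788-235129087, minus strand): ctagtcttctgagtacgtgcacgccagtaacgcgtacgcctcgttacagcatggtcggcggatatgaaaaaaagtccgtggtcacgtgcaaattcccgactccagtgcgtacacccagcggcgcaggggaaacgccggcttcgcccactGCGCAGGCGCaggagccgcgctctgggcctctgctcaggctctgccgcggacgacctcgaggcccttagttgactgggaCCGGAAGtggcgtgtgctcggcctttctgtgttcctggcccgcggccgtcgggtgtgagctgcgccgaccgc
TOMM22 (chr22:38681707-38682006, plus strand): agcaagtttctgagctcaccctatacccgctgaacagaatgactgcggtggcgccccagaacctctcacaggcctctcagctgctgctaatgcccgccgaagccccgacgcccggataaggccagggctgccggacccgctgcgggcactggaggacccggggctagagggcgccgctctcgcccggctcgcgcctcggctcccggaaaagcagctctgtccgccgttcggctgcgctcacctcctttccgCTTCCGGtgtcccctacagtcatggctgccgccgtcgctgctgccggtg
TOMM6 (chr6:41787444-41787743, plus strand): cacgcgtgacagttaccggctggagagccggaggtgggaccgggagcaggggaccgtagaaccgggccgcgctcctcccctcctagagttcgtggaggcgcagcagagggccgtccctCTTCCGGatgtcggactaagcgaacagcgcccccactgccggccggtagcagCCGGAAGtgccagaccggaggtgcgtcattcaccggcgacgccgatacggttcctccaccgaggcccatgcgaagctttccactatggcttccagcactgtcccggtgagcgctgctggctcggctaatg
MRPL3 (chr3:131502922-131503221, minus strand): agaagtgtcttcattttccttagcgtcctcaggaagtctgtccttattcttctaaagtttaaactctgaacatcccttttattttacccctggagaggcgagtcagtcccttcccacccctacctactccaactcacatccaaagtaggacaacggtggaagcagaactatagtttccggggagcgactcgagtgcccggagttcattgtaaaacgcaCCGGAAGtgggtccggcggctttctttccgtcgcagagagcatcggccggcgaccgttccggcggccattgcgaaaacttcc
MRPS10 (chr6:42217812-42218111, minus strand): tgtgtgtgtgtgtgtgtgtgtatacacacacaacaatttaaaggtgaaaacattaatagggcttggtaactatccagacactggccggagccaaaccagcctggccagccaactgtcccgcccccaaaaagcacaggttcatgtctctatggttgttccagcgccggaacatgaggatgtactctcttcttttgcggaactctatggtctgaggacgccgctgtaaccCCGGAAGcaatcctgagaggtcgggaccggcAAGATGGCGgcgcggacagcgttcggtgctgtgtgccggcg
MRPL46 (chr15:88467339-88467638, minus strand): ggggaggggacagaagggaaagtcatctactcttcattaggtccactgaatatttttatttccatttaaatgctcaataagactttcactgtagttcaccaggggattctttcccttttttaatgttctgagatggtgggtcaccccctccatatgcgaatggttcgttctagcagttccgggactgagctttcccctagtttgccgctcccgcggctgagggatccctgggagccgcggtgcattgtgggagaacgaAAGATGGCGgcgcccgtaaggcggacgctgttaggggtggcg

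In these windows the ETS core began at base -22 of TOMM20, -80 of TOMM6, -32 of MRPL3 and -22 of MRPS10, counted from the start, on the gene's strand, with base 1 as the first transcribed base. On the opposite strand it lay at base -132 of TOMM6 and at base 2 of TOMM22. The NRF1 letters began at base -101 of TOMM20 on the opposite strand. The YY1 letters began at base 10 of MRPS10 and base 9 of MRPL46, just inside the transcribed part. A match is a description of the letters and does not show that a factor binds.

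Genes that serve the same organelle were counted from lists, to be read beside the 16.7% called among all genes tested. Of 24 genes for assembly of the mitochondrial ribosome, 2 rose and none fell (8.33% called, median log2 fold change 0.037). MTERF4, listed as MTERFD2, which brings an RNA methyltransferase to the large subunit, went from 28.3, 27.4 and 26.7 FPKM in the control to 31.6, 31.2 and 32.7 FPKM in the knockdown, without overlap (0.21, SE 0.034, limma adjusted p = 0.0079), and this call was kept whichever library was left out. RPUSD4, a pseudouridine synthase, rose to 20.8 ± 0.809 from 18.2 ± 0.461 FPKM (adjusted p = 0.020), which did not hold without knockdown replicate 2 or any control replicate (up to 0.066). Of 16 mitochondrial translation factors, 1 was called (6.25%), MTFMT, which formylates the initiator transfer RNA. It rose from 8.82 ± 0.473 to 10.4 ± 0.483 FPKM (adjusted p = 0.031), and leaving out replicate 2 or 3 of either group ended the call (up to 0.11).

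Other import and sorting genes numbered 26, of which 2 rose and 1 fell (11.5% called, median 0.024). TIMMDC1, related to the TIMM17 family but known as an assembly factor of respiratory complex I, fell from 48.2, 46.0 and 47.5 FPKM to 40.9, 42.3 and 39.9 FPKM, without overlap (-0.20, SE 0.033, limma adjusted p = 0.0082), a call kept whichever library was left out. TIMM21, listed as C18orf55 and a subunit of the TIM23 complex, rose from 11.1 ± 0.458 to 13.2 ± 0.869 FPKM (adjusted p = 0.027, kept only without knockdown replicate 3, otherwise up to 0.090). TOMM40L, a paralog of the TOM channel, stood at 14.9 ± 0.429 FPKM, up from 13.3 ± 0.278 (adjusted p = 0.032), and was not called in any of the 6 fits with a library left out (up to 0.11).

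For transcription and replication of mitochondrial DNA, 1 of 10 genes rose and 1 fell, a share near that of all genes tested. TFB2M, a factor that opens mitochondrial promoters, rose from 12.4 ± 0.486 to 14.3 ± 0.380 FPKM (adjusted p = 0.022), and POLRMT, the mitochondrial RNA polymerase, fell from 10.1 ± 0.436 to 8.70 ± 0.297 FPKM (adjusted p = 0.030). TFB2M lost its call when knockdown replicate 1 or 2, or control replicate 1 or 3, was left out (up to 0.075), and POLRMT in all but the fit without control replicate 1 (up to 0.11). None of 10 regulators of mitochondrial biogenesis, such as NRF1, GABPA and ESRRA, was called. Of 19 other genes of the membranes and matrix, 3 were called (15.8%). SLC25A3, the phosphate carrier, rose from 234 ± 4.59 to 255 ± 8.91 FPKM (adjusted p = 0.037), LONP1, a matrix protease, rose from 23.3 ± 0.310 to 25.6 ± 0.315 FPKM (adjusted p = 0.024), and MDH2, malate dehydrogenase, fell from 128 ± 2.38 to 115 ± 6.73 FPKM (adjusted p = 0.047). SLC25A3 and LONP1 were kept only without knockdown replicate 3 and MDH2 only without knockdown replicate 1 (otherwise up to 0.13).

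The products of mitochondrial translation were measured at the RNA level as well. Of 13 mitochondrial genes for proteins, 12 were tested and none was called, with a median log2 fold change of -0.0078. MT-ATP8 was listed at 0 in every library. Together the 13 summed to between 52903 and 54002 FPKM in the knockdown and between 53034 and 56363 FPKM in the control, and the groups overlapped.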

How the data were processed

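RNA of H358 cells was sequenced from 3 ESRP KD and 3 CTRL libraries, made with a stranded mRNA kit per the labels' protocols. The deposited values are FPKM per gene, made by the authors; the submitters' processing notes name TopHat 1.4.1, Cuffdiff 2.2.0 and hg19. No source used here gives the annotation, strand setting or read totals, so no count test, counting interval or floor was used.

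Rows averaging 1 FPKM or more were tested with limma 3.58.1 in R 4.3.3 (two-sided, eBayes with its intensity trend) after conversion to log2(FPKM + 1), a scale that understates the change of low genes. P-values were adjusted by Benjamini-Hochberg over all 13611 rows with a threshold of 0.05. They measure the spread between the labelled triplicates.

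The members and lists were chosen with earlier results of these data known. Genes named are the called ribosome genes (up to 8 each way), the highest and lowest of MRPL and MRPS, every import gene, untested members and up to 3 called genes per list. Alternatives were the pseudocount (0.1), the filter (none, 5 FPKM), scaling, no trend, a replicate block, leaving out each library and, chosen after seeing the data, a correction for GC content and length and members free of overlapping rows. Correlations of deviations between same-numbered libraries were small (-0.017 to 0.070), so the main fit has no block. Whether the libraries were made in pairs is not known.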

Additional observations from a re-analysis of the deposited data

How the results depend on the processing

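Counts of calls depended on the settings more than medians did. With the replicate number as a block, 1433 genes were called in place of 2278, no ribosome gene rose and 1 fell, and 1 import gene rose and 0 fell; 1 of the 11 called members, TIMM50, was among them and MRPL30 was added. Correlations of deviations between same-numbered libraries were -0.017, 0.062 and 0.070 for replicates 1, 2 and 3. Those between libraries of different numbers ran from -0.14 to 0.087. Such correlations cannot settle whether the numbers pair the libraries, and replicate 1 had the lowest estimated depth in both groups. The block left fold changes as they were (0.13 for MRPL1 in both fits), so its lost calls are not smaller fold changes. With no filter on low values 1413 genes were called, 1 ribosome gene fell, 2 import genes rose and 0 fell. With a filter of 5 FPKM 4 ribosome genes fell. With TPM scaling 1 ribosome gene rose and 5 fell. With no intensity trend 1 ribosome gene rose and 0 fell, and 3 import genes rose. With the correction for GC content and length 4 ribosome genes rose and 0 import genes fell. Shares called either way were, for ribosome, import and all genes tested, 1.35%, 5% and 10.5% with the block. They were 4%, 10% and 5.27% with no filter, and 8.11%, 36.8% and 22.4% with the filter of 5 FPKM. TPM scaling gave 8.11%, 30% and 17.4%, no trend 1.35%, 20% and 14%, and the correction 9.46%, 35% and 18.8%. The ribosome share was below that of all genes tested in each of these fits. Among members that overlap no other tested row, 1 ribosome gene rose and 1 fell, and 3 import genes rose and 0 fell. The causes were not tested. Leaving out each library in turn gave 1187 to 1983 genes called, 0 to 3 ribosome genes risen and 0 to 2 fallen, 1 to 3 import genes risen and 0 to 1 fallen, and medians of -0.017 to 0.014 for the ribosome and 0.058 to 0.098 for import, the lowest without knockdown replicate 2. Of the fold changes of named genes none changed direction while called, and 91 of the values without 1 library lost their call. Total depth is unknown, so no limit from counting can be given.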
